A study of Drosophila melanogaster with 9 samples.

Results

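The nuclear-encoded genes of the mitochondrial respiratory chain were examined in the midgut of adult female Drosophila melanogaster. They were chosen by symbol, as every gene in the count tables named with ND- (complex I), Sdh (complex II), UQCR- (complex III), COX (complex IV) or ATPsyn (complex V). The choice gave 86 of the 15682 gene identifiers, of which 62 were subunit genes, 23 were paralogs of a subunit gene and 1, Sdhaf3, was an assembly factor of complex II. Complex I held 33 of the subunit genes, complex II 4, complex III 6, complex IV 8 and complex V 11. COX7CL and ND-30, which carry these prefixes in the name table, were not analysed here.

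RNA was sequenced from 3 groups of virgin females in a w1118 background, with 3 libraries each and a pool of 30 midguts per library. The first group was a control and the second a mutant of transformer (tra), which encodes a splicing regulator of female identity. The third, the rescue, was the same mutant with female-form tra (traF) under the esg driver, which is active in intestinal stem cells and their immediate daughters. Per the labels, all flies were 15 days old and were kept for 3 days at 18 °C and then for 10 days at 29 °C, which switches the transgene on; they name no tra allele. The rescue thus returned tra to progenitor cells, while RNA came from the whole midgut.

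The respiratory chain passes electrons from NADH (complex I) and succinate (complex II) through ubiquinone to complex III, then through cytochrome c to complex IV, which reduces oxygen. The proton gradient built along the way drives ATP synthase (complex V). In flies, many subunit genes have a second copy that is expressed mainly in the testis, so that copies with low counts in a gut are read apart from the subunit genes.

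The libraries held between 84839470 and 108455374 gene counts, and 10088 genes passed the filter on low counts. The tra gene itself had 650 to 821 counts in the control libraries, 1 or 2 in the mutant libraries and 294 to 756 in the rescue libraries. On the first principal component, with 38.6% of the variance, control replicate 3 lay at -64.2, apart from the other control libraries at -34.6 and -34.5. The 8 enterocyte markers, which include digestive enzymes of the absorptive cells, summed to between 38820 and 81880 CPM (counts per 1000000 gene counts after TMM scaling of library sizes) in all libraries, whereas the 11 testis markers summed to between 13.8 and 26.8 CPM. Nearly all of the testis sum was mia, at 13.2 to 26.6 CPM, and the next highest marker, fzo, reached at most 0.871 CPM. Of the testis markers, aly and Mst84Da were at 0 in every library.

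Of the 62 subunit genes, 59 were tested. ND-AGGG and UQCR-11 were listed at 0 in all 9 libraries and ND-B8 had 2 counts in total; all 3 encode parts that respiring cells use, so these values are given only as listed. Levels between genes were compared as CPM per kilobase of annotated exons, averaged over the 9 libraries. On that scale the tested subunit genes ranged from 38.2 for ND-B18 to 736 for ATPsynC, which forms the proton-driven ring of ATP synthase. ATPsynbeta, the catalytic subunit of ATP synthase, followed at 679 and COX5A, a structural subunit of cytochrome c oxidase, at 510. Complexes IV and V lay highest, with a median level of 294 and 241 CPM per kilobase, followed by 108 for complex II, 101 for complex III and 85.2 for complex I. The medians of complexes I to III were close together beside the range within complex I, from 38.2 to 463.

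In the tra mutant every tested subunit gene had a lower fitted level than in control, by a small amount. In edgeR's unpaired fit none passed the test across all genes, and with the replicate number as a block 2 did. The median log2 fold change of the 59 subunit genes was -0.31, a ratio of 0.809, and 59 of 59 lay below 0. These genes were measured in the same libraries and are not independent of each other. Over all 10088 genes the median was -0.03 and 53.5% lay below 0, and 24.2% of all genes had a fold change lower than the subunit median. The subunit genes also varied little among themselves, from -0.63 to -0.05 with an SD of 0.11 on the log2 scale, against an SD of 0.84 over all genes. The median SE of a subunit gene's log2 fold change was 0.16. In RNA of a whole tissue, fewer cells of a type and less RNA per cell cannot be told apart.

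**Figure D1:**
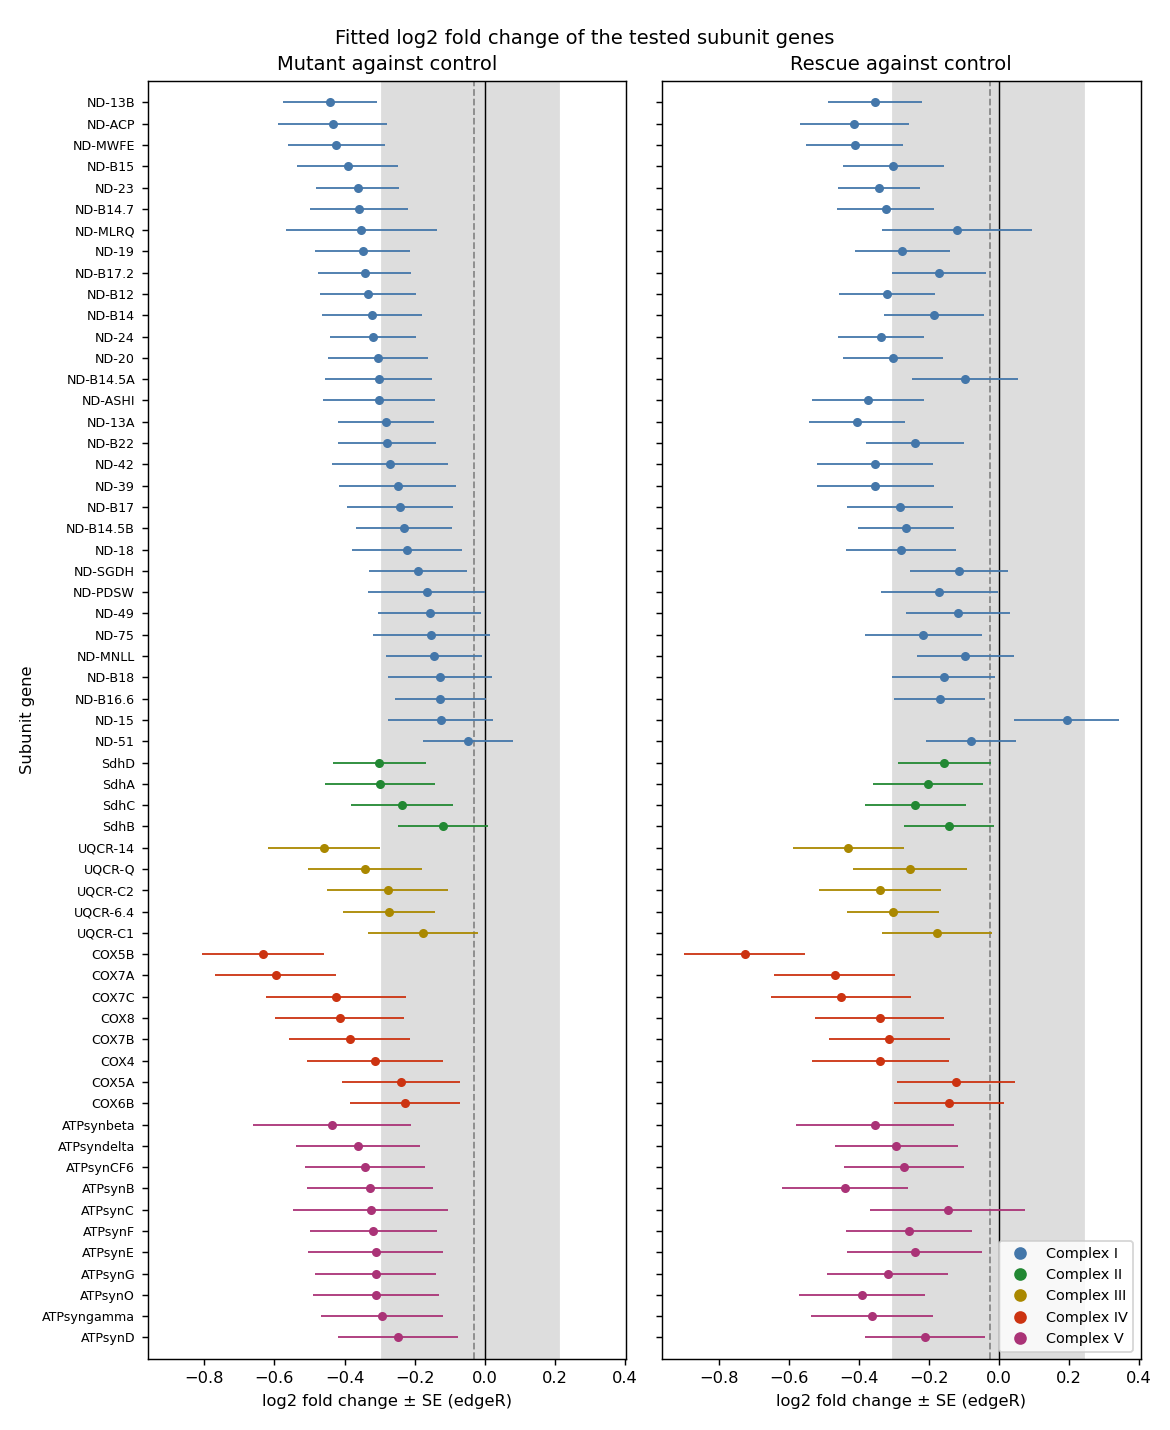
Fitted log2 fold change of the 59 tested subunit genes (points, with bars of 1 SE from edgeR) in mutant against control and rescue against control, coloured by complex. The dashed line is the median and the grey band the middle 50% of all 10088 genes tested; all points lie below 0 on the left, and ND-15 alone lies above 0 on the right.

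With edgeR's quasi-likelihood test and an adjusted p under 0.05, 0 of the 66 tested members were called higher and 0 lower in the mutant, where 3.66% of all genes were called higher and 3.01% lower. Before adjustment, 17 of 59 subunit genes were lower and 0 higher with p under 0.05, where 12.8% of all genes were lower and 11.2% higher. DESeq2 called 2 subunit genes lower, COX5B (adjusted p = 0.0150) and COX7A (adjusted p = 0.0234), where it called 6.34% of all genes lower and 6.79% higher. With the replicate number as a block in the fit to all 9 libraries, edgeR called ND-13B (adjusted p = 0.0356) and COX7A (adjusted p = 0.0297) lower. This block pairs control and mutant libraries but also the rescue libraries. A paired fit to the control and mutant libraries alone was not among the settings run. In 24 of 59 subunit genes all mutant libraries lay below all control libraries, as they did in 12.9% of all genes. In 0 of 59 all mutant libraries lay above, as in 12.7% of all genes. The subunit genes share libraries and rose and fell together between them, so such counts of genes are not independent observations. Whether these counts differ from the shares of all genes was not tested.

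Complex IV, cytochrome c oxidase, had the lowest median log2 fold change of the 5 complexes in mutant against control, at -0.40, followed by -0.32 for complex V, -0.28 for complex I, -0.28 for complex III and -0.27 for complex II. These medians were not compared by a test, and they lie closer together than the median SE of a single gene. The summed level of the 62 subunit genes was 10830, 14650 and 12810 CPM in the control libraries, 9725, 11400 and 9630 in mutant and 8699, 11580 and 11650 in rescue libraries. Control replicate 1 thus lay below mutant replicate 2 and below rescue replicates 2 and 3, so the groups overlap. Summed by complex, all mutant libraries lay below all control libraries in complexes II and III and not in complexes I, IV and V. The means over all 5 complexes were 12760 ± 1909, 10250 ± 998 and 10640 ± 1681 CPM (SD, n = 3), and the highest control library was 1.35 times the lowest, while the mutant mean was 0.803 of the control mean.

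**Figure D2:**
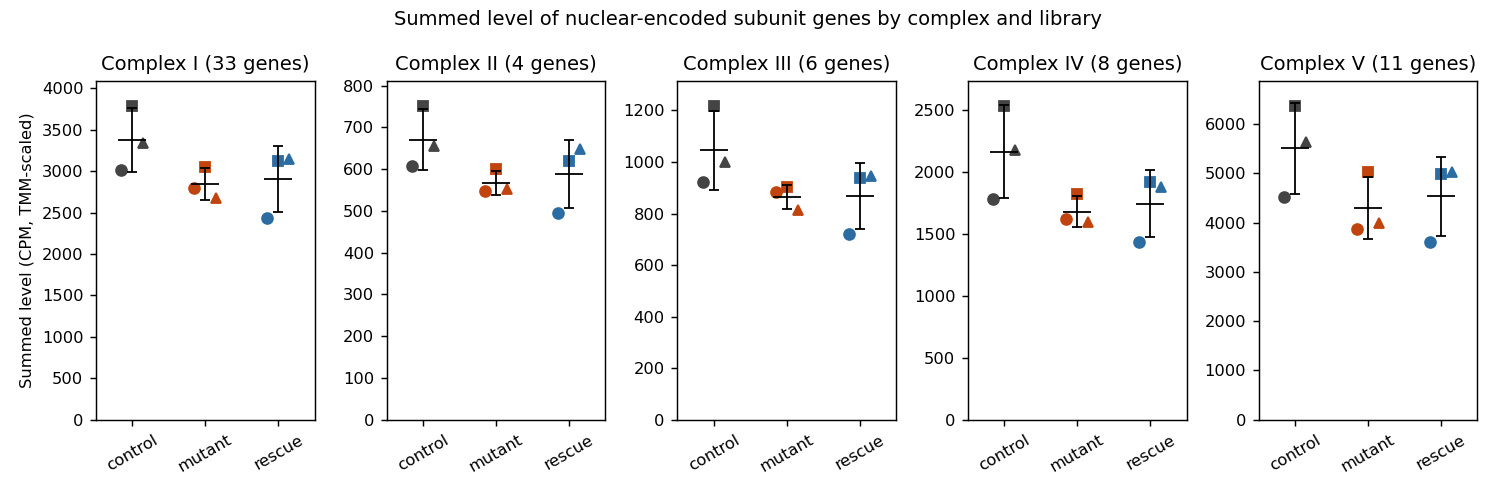
Summed level of the subunit genes of each complex (CPM after TMM scaling, linear axes from 0) in the 9 libraries; circles, squares and triangles are replicates 1, 2 and 3, and bars are the mean ± SD of 3 libraries. Control replicate 2 is highest and rescue replicate 1 lowest in all 5 complexes, and control and rescue overlap in each.

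Complex I, the NADH dehydrogenase, had 31 tested subunit genes with log2 fold changes from -0.44 to -0.05 in mutant against control. ND-13B, an accessory subunit, measured 60.9, 72.4 and 63.0 CPM in control, 42.5, 52.9 and 49.1 in mutant and 43.9, 57.2 and 52.3 in rescue libraries. All mutant and rescue libraries lay below all control libraries, with a log2 fold change of -0.44 ± 0.13 (SE, adjusted p = 0.0805) in mutant against control. ND-ACP, the mitochondrial acyl carrier protein, measured 140, 165 and 173 CPM in control, 107, 131 and 115.1 in mutant and 96.6, 133 and 128 in rescue libraries. Its groups also did not overlap between control and either other group, with a log2 fold change of -0.43 ± 0.15 (SE, adjusted p = 0.123) in mutant against control. ND-MLRQ, whose mammalian counterpart has been assigned to complex IV, had the highest level of the ND- genes per kilobase, with means of 277, 217 and 254 CPM in control, mutant and rescue, and its libraries overlapped between all groups.

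Within complex I, the 6 core subunits of the electron path that were tested (ND-75, ND-51, ND-24, ND-49, ND-23 and ND-20) had a median log2 fold change of -0.23 and the 25 accessory subunits of -0.28. The core subunits spanned most of the range of the complex: ND-51, which binds NADH and FMN, had -0.05 ± 0.13 and ND-23, an iron-sulphur protein, had -0.36 (SE of 0.12). ND-15 was the 1 subunit gene above control in the rescue. It measured 80.6, 88.7 and 83.1 CPM in control, 67.2, 93.0 and 71.0 in mutant and 82.4, 103 and 103 in rescue libraries. The rescue libraries overlapped both other groups, with a log2 fold change of 0.19 ± 0.15 (SE, adjusted p = 0.440) against control.

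Complex II, succinate dehydrogenase, also serves in the citric acid cycle and is encoded by nuclear genes alone. SdhA, its flavoprotein, measured 277, 327 and 280 CPM in control, 225, 266 and 228 in mutant and 208, 268 and 293 in rescue libraries. The mutant libraries lay below the control libraries and the rescue libraries did not, with a log2 fold change of -0.30 ± 0.16 (SE, adjusted p = 0.277) in mutant against control. SdhD, a membrane anchor, had -0.30 ± 0.13 (SE, adjusted p = 0.203), and its libraries overlapped. The assembly factor Sdhaf3 had the opposite sign, 0.28 ± 0.20 (SE, adjusted p = 0.423), at 3.11 to 5.47 CPM in all libraries.

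In complex III, the cytochrome bc1 complex, UQCR-14, the counterpart of mammalian UQCRB, measured 211, 260 and 227 CPM in control, 178, 185 and 146 in mutant and 142, 183 and 193 in rescue libraries. Both other groups lay wholly below control, with a log2 fold change of -0.46 ± 0.16 (SE, adjusted p = 0.116) in mutant against control. UQCR-Q, a small subunit, had -0.34 ± 0.16 (SE, adjusted p = 0.232). UQCR-C1, a core protein, had -0.18 ± 0.16 (SE, adjusted p = 0.523), with overlapping libraries in every comparison.

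The subunit gene with the lowest fold change in the mutant, and the 1 member called in any comparison by edgeR without the block and with TMM scaling of all 9 libraries, was COX5B, a nuclear-encoded subunit on the matrix side of complex IV. It measured 176, 232 and 206 CPM in control, 137, 144 and 114.7 in mutant and 96.7, 138 and 136 in rescue libraries. All control libraries lay above all libraries of both other groups. Its log2 fold change was -0.63 ± 0.17 (SE, adjusted p = 0.0590) in mutant against control, and it fell by 0.73 ± 0.17 on the log2 scale (SE, adjusted p = 0.0311) in rescue against control. COX7A, a small membrane-spanning subunit, measured 223, 331 and 291 CPM in control, 167, 206 and 186 in mutant and 172, 221 and 217 in rescue libraries. Its highest rescue library lay just below its lowest control library, and its log2 fold change was -0.60 ± 0.17 (SE, adjusted p = 0.0710) in mutant against control.

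COX7C had a log2 fold change of -0.42 ± 0.20 (SE, adjusted p = 0.228) in mutant against control, from 138, 180 and 154 CPM to 125, 130 and 97.6 CPM, with no overlap. COX5A, the highest of the complex, differed little and overlapped, with means of 440, 373 and 404 CPM in control, mutant and rescue and a log2 fold change of -0.24 ± 0.17 (SE, adjusted p = 0.420) in mutant against control. The range within complex IV, from -0.63 to -0.23, was wider than that within complex V, from -0.43 to -0.25.

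The 11 genes of complex V were the most alike, with an SD of 0.05 between their log2 fold changes in mutant against control. ATPsynbeta measured 1632, 2225 and 1922 CPM in control, 1239, 1787 and 1250 in mutant and 1161, 1610 and 1750 in rescue libraries. Mutant replicate 2 and rescue replicate 3 lay above the lowest control library, and the log2 fold change was -0.43 ± 0.23 (SE, adjusted p = 0.273) in mutant against control. ATPsyndelta, in the central stalk, had -0.36 ± 0.18 (SE, adjusted p = 0.246). Of the 11 genes, ATPsynCF6 was the 1 whose mutant libraries lay wholly below control, as they did in 12.9% of all genes.

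Between the rescue and the mutant no difference in the subunit genes was detected, and their fold changes lay on both sides of 0, from -0.12 to 0.32 on the log2 scale with a median SE of 0.16. In rescue against mutant the median log2 fold change was 0.02, with 25 of 59 subunit genes below 0 and 34 above, beside a median of 0.00 over all genes with 50.6% below 0 and 49.4% above. edgeR and DESeq2 both called 0 members in either direction, and 0 passed an unadjusted p under 0.05; of all genes, edgeR called 0.188% higher and 0.278% lower, or 2.90% and 2.16% before adjustment, and DESeq2 called 0.495% and 0.512%. No subunit gene had groups that did not overlap, against 5.32% of all genes higher and 6.84% lower. The median depended on rescue replicate 1: without it the median was 0.16 and 0 of 59 lay below 0, and without rescue replicate 3 it was -0.04.

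Rescue against control, which shares its control libraries with mutant against control, gave a median log2 fold change of -0.28 with 58 of 59 subunit genes below 0, beside a median of -0.03 over all genes and 53.0% below 0. COX5B was the 1 member called lower with edgeR and with DESeq2 (adjusted p = 0.00342), and 0 were called higher; edgeR called 4.65% of all genes lower and 4.79% higher, and DESeq2 8.07% lower and 7.43% higher. Before adjustment, 15 of 59 subunit genes were lower and 0 higher with p under 0.05, where 14.7% of all genes were lower and 12.6% higher. In 19 of 59 the rescue libraries lay wholly below control, as they did in 15.8% of all genes. In 0 of 59 the rescue libraries lay wholly above, as in 15.6% of all genes. Here too the counts come from genes that share libraries, and their difference from the shares of all genes was not tested. By complex the medians were -0.34 for IV, -0.30 for III, -0.29 for V, -0.28 for I and -0.18 for II. The call of COX5B was lost in the fit to the 6 libraries compared (adjusted p = 0.0690) and without any 1 of control replicates 2 and 3, mutant replicate 3 and the 3 rescue libraries, with adjusted p from 0.0516 to 0.102.

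The subunit genes moved together from library to library, within groups as well as between them. Each gene's log2 level was compared with its own mean over the 9 libraries, and the median of this deviation was 0.00, 0.39 and 0.19 in the control libraries, -0.11, -0.01 and -0.19 in mutant and -0.34, 0.04 and 0.04 in rescue libraries. Rescue replicate 1 was the lowest rescue library for 59 of 59 subunit genes, and for 36.7% of all genes. Control replicate 2 was the highest control library for 58 of 59, and for 28.9% of all genes. The latter rests on the scaling: control replicate 2 had the lowest TMM factor, 0.894, and scaled by library totals alone it was highest for 17 of 59 and control replicate 3 for 41, whereas rescue replicate 1 stayed lowest for 59 of 59. Counts of subunit genes in any comparison are thus not counts of independent replicates. The comparison of groups moved with these libraries. Without control replicate 2 the median log2 fold change in mutant against control was -0.19, with -0.05 for UQCR-C1, -0.09 for COX5A and -0.17 for UQCR-Q; without mutant replicate 1 that of ND-MLRQ was -0.17. Without control replicate 2 the median in rescue against control was -0.17, and without rescue replicate 1 that in rescue against control was -0.13 with 50 of 59 below 0.

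**Figure D3:**
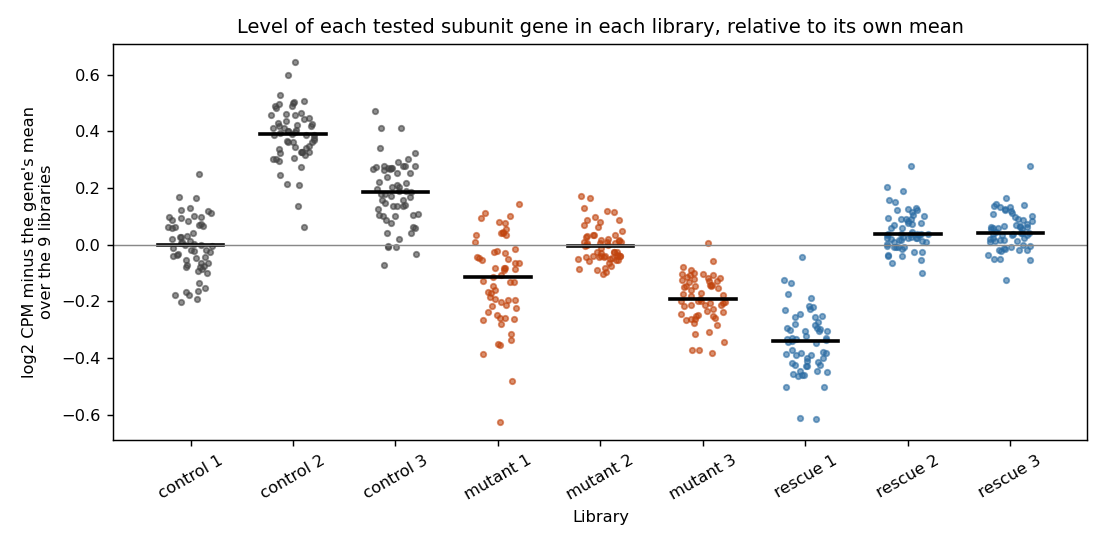
Level of each of the 59 tested subunit genes in each library, as log2 CPM minus the gene's mean over the 9 libraries (points, spread sideways for legibility; black lines are medians). The points of a library lie close together, from a median of 0.39 in control replicate 2 to -0.34 in rescue replicate 1.

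In mutant against control the fold changes showed little relation to features that the choice of genes did not use, though no relation was tested. The 12 tested subunit genes on the X chromosome had a median log2 fold change of -0.26 in mutant against control and the 47 on other chromosomes -0.31, beside -0.01 and -0.04 for all genes there. The 30 subunit genes at or above the median level per kilobase had a median of -0.32 and the 29 below it -0.30. By exon, 31 members overlapped an opposite-strand gene and 8 a same-strand gene. Counts of these members are uncertain, since the strand setting of the counting was not given in the sources used here. The 27 tested subunit genes with no such overlap had a median of -0.31 and the 32 with one had -0.30. These medians lay further apart in rescue against control, at -0.32 and -0.25, and in rescue against mutant, at -0.0008 and 0.0554.

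The 23 paralogs had low levels in the midgut. Among them 8 (ND-20L, ND-24L, ND-B14.5AL, SdhAL, SdhCL, COX6CL, ATPsynCF6L and ATPsynGL) were listed at 0 in all 9 libraries. Where such a gene was counted, a 0 allows up to 3 counts per library, or 0.0354 per 1000000 counts in the shallowest; since ND-AGGG and UQCR-11 were listed at 0 as well, a listed 0 may not be a measured absence. Another 9 had counts but too few to be tested, and 6 were tested. No paralog exceeded a mean of 1.84 CPM over the 9 libraries; the highest group mean was 2.48 CPM, of UQCR-11L in control. Per kilobase, the subunit gene lay 23.5 times higher than UQCR-6.4L, 295 times higher than ND-51L1 and 395 times higher than COX5BL, and at least 1765 times higher than the other paralogs with 5 or more counts whose subunit gene had counts. UQCR-11L, at 4.15 CPM per kilobase, is the exception in that UQCR-11 itself was listed at 0.

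**Figure D4:**
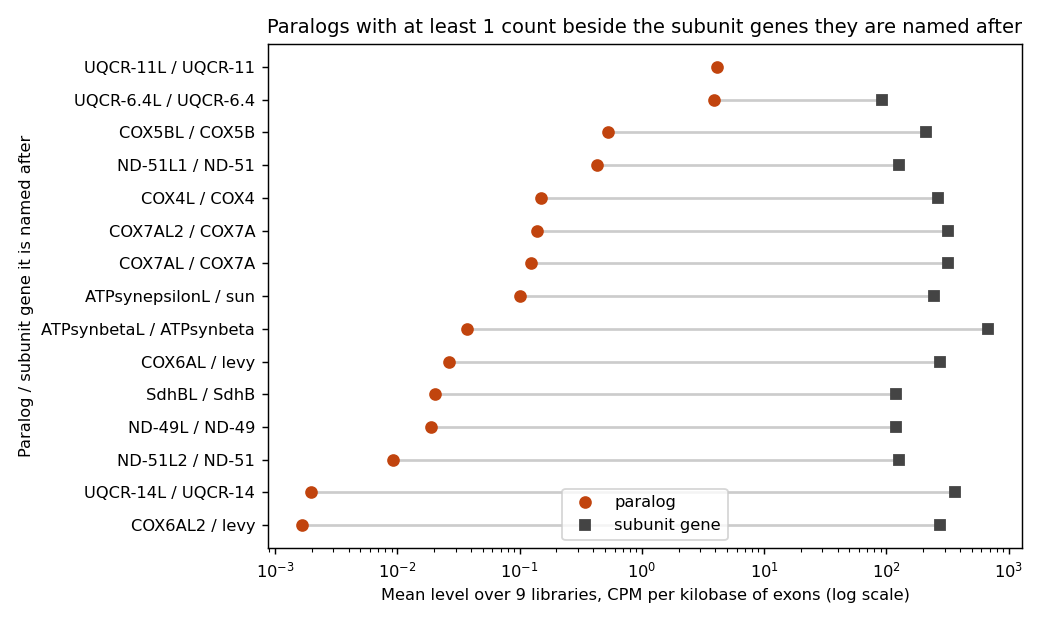
Mean level over the 9 libraries, in CPM per kilobase of exons on a log axis, of the 15 paralogs with at least 1 count (circles) and of the subunit genes they are named after (squares; levy and sun are the subunit genes for COX6A and the epsilon subunit). The 8 paralogs at 0 are not drawn, nor is UQCR-11, which was listed at 0; UQCR-6.4L lies nearest to its subunit gene.

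Of the 6 paralogs tested by edgeR it called 0. Before adjustment 1 was higher and 2 were lower in mutant against control with p under 0.05 (11.2% and 12.8% of all genes). DESeq2, which gave an adjusted p for 8 paralogs in this comparison, called 1 higher and 1 lower (6.79% and 6.34% of all genes). COX5BL measured 0.146, 0.255 and 0.170 CPM in control, 0.469, 0.430 and 0.488 in mutant and 0.361, 0.504 and 0.278 in rescue libraries. Both other groups lay above control, with a log2 fold change of 1.28 ± 0.37 (SE, adjusted p = 0.0680; DESeq2 adjusted p = 0.0216) in mutant against control, opposite in sign to COX5B. ND-51L1 measured 1.32, 1.36 and 1.29 CPM in control, 0.611, 0.913 and 0.402 in mutant and 0.567, 0.779 and 1.09 in rescue libraries. It lay below control in both, with a log2 fold change of -1.05 ± 0.35 (SE, adjusted p = 0.107; DESeq2 adjusted p = 0.0346) in mutant against control. UQCR-11L, UQCR-6.4L, COX4L and COX7AL2 overlapped between all groups, with log2 fold changes of -0.97, 0.19, -0.04 and 0.25.

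Other genes of energy metabolism were read from lists chosen with these results known. Over all genes in mutant against control, edgeR called 3.66% higher and 3.01% lower, DESeq2 6.79% and 6.34%, and 11.2% and 12.8% passed before adjustment. The 7 tested subunit genes with other names, such as blw (the alpha subunit of ATP synthase) and Cyt-c1, had a median log2 fold change of -0.33 in mutant against control, with 7 of 7 below 0; edgeR and DESeq2 called 0, and 3 were lower before adjustment. Of 6 tested carrier and exchange genes 5 lay below 0, and 0 were called by either tool or before adjustment; sesB, the ADP/ATP translocase, had -0.43 ± 0.28 (SE), and the exception Cyt-c-d had at most 0.168 CPM in any library. The 8 assembly factors had a median of -0.17 and the 12 genes of the citric acid cycle a median of -0.07, and neither tool called any; before adjustment 1 assembly factor was higher and 1 lower, and 0 genes of the cycle differed. The 7 chaperone and antioxidant genes had a median of -0.10, with 0 called by either tool and 2 lower before adjustment.

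Glycolysis genes had the opposite sign, with a median of 0.41 and 11 of 11 above 0, of which edgeR called 1 higher and DESeq2 5, where they called 3.66% and 6.79% of all genes higher. Pgi, the isomerase that makes fructose 6-phosphate, measured 164, 176 and 102 CPM in control, 383, 402 and 303 in mutant and 317, 460 and 368 in rescue libraries. It rose by 1.30 ± 0.23 on the log2 scale (SE, adjusted p = 0.0102) in the mutant and by 1.37 ± 0.23 (SE, adjusted p = 0.00718) in the rescue. Ldh, lactate dehydrogenase, was called in rescue against control (0.95 ± 0.25, SE, adjusted p = 0.0430), a call lost when any 1 library other than control replicate 3 was left out, in the fit to 6 libraries, with library totals and with upper-quartile scaling, with adjusted p from 0.0506 to 0.116. The 8 ubiquinone synthesis genes had a median of 0.01 in mutant against control, with 4 below 0. Of these, Coq2, which joins the ring to its tail, rose by 0.99 ± 0.13 (SE, adjusted p = 0.00257) in the mutant and by 0.75 ± 0.13 (SE, adjusted p = 0.00855) in the rescue, and Coq6, a ring hydroxylase, rose by 0.69 ± 0.11 (SE, adjusted p = 0.00558) in the rescue. The 15 genes of mitochondrial biogenesis had a median of -0.01, with 8 below 0. Of these, srl, the fly homologue of the PGC-1 coactivators, measured 35.5, 21.1 and 28.1 CPM in control and 12.0, 16.6 and 12.3 in the mutant. It fell by 1.05 ± 0.22 on the log2 scale (SE, adjusted p = 0.0203), a call lost without mutant replicate 1 (adjusted p = 0.0893) or 3 (adjusted p = 0.0865).

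**Figure D5:**
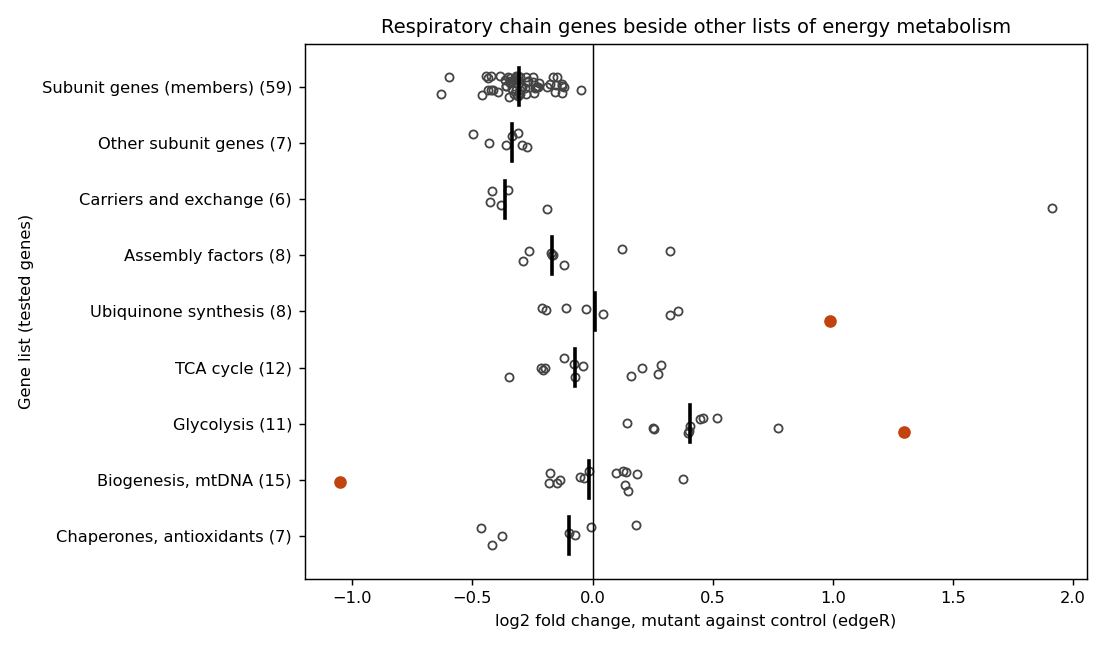
Fitted log2 fold change in mutant against control of the 59 tested subunit genes and of 8 lists of energy metabolism (points; filled where the adjusted p is under 0.05, black lines are medians). The subunit genes lie in a narrow range below 0, the glycolysis genes above 0, and the filled points are Coq2, Pgi and srl; the point at 1.91 is Cyt-c-d.

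Markers of some other tissues differed between the groups too, while the sums of progenitor and of Malpighian tubule markers overlapped. The 11 visceral muscle markers, among them myosin heavy chain (Mhc) and Act57B, had a median log2 fold change of -0.35 in mutant against control, with 10 of 11 below 0; edgeR called 0, DESeq2 called 3 lower, and 6 were lower before adjustment, where 3.01%, 6.34% and 12.8% of all genes were. By library the muscle sum was 2658, 3066 and 2765 CPM in control, 2093, 1884 and 2205 in mutant and 2070, 2603 and 1901 in rescue libraries. Muscle and subunit sums ranked the control libraries alike, ranked the mutant libraries in opposite order, and had different highest and lowest libraries in the rescue. The part of visceral muscle in the levels of the subunit genes was not tested. The enterocyte markers summed to 38820 to 66350 CPM in control, 67040 to 81880 in the mutant and 59930 to 71290 in the rescue. The rise of this sum lay largely in Mal-A1 and Amy-p. Mal-A1 had means of 10230, 24510 and 22380 CPM by group, and Amy-p of 7477, 11820 and 9959. The median log2 fold change of the 8 enterocyte markers in mutant against control was 0.03, with 3 of 8 below 0. Enteroendocrine markers summed to 358 to 435 CPM in control, 500 to 549 in the mutant and 504 to 631 in the rescue. Tracheal markers, of which btl was not analysed here, summed to 38.2 to 44.1, 19.3 to 20.9 and 20.4 to 21.1 CPM, in the same order. The highest of them in control was bnl, which encodes a secreted growth factor that acts on tracheal cells and does not mark the cells themselves. Its means were 24.5, 6.48 and 8.8 CPM by group. The fall of the sum is thus largely that of bnl. In mutant against control serp differed little (-0.08 ± 0.19, SE), while verm had -0.52 ± 0.18 and trh -0.83 ± 0.19. Whether the amount of tracheal tissue differed was not tested. Fat body markers summed to 96.1, 62.7 and 12.8 CPM in the control libraries, 4.69 to 6.34 in the mutant and 6.12 to 12.2 in the rescue. Most of the control sum was Yp1, Yp2 and Yp3, with means of 25.1, 11.4 and 11.7 CPM. In the mutant their means were 0.179, 0.170 and 0.261 CPM. In mutant against control apolpp had -1.14 ± 0.44 (SE). Lsp2 (0.63 ± 0.91) and Fbp2 (1.03 ± 0.49) had the opposite sign, at means of 0.123 and 0.247 CPM in control. Whether the amount of fat body differed was not tested. Progenitor markers, of which esg and Dl were not analysed here, summed to 39.2, 49.9 and 121 CPM in the control libraries. They summed to 43.9 to 58.4 in the mutant and 39.6 to 49.2 in the rescue. In control replicate 3 Sox21a was at 54.1 CPM and upd3 at 30.9, against at most 15.8 and 1.84 in the other control libraries. Malpighian tubule markers summed to at most 6.61 CPM in any library. Called among these markers in mutant against control were Mal-A1 (1.26) and Tk (0.82), which were higher, and bnl (-1.92), trh (-0.83), Yp1 (-7.13), Yp2 (-6.06) and Yp3 (-5.47), which were lower, with log2 fold changes in parentheses. Of these calls, that of trh was lost in 6 alternative settings, that of Yp3 in 5 and that of Mal-A1 in 4, with adjusted p up to 0.0980, 0.112 and 0.0709. Called in rescue against control were Mal-A1 (1.13), Tk (0.98), AstA (0.81), pros (0.64) and Dh31 (0.47), which were higher, and Yp1 (-7.69), Yp2 (-6.17), verm (-0.73) and bnl (-1.48), which were lower. Here the call of Dh31 was lost in 12 settings (adjusted p up to 0.141), of verm in 7 (up to 0.127), of Mal-A1 in 4 (up to 0.0815), of pros in 3 (up to 0.0650) and of AstA in 2 (up to 0.0724). The part of these tissues in the subunit levels was not tested either.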

How the data were processed

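The authors deposited raw whole-number counts per gene for each of 9 libraries. TopHat2 2.0.11, HTSeq and build dm3 appear in the submitters' processing notes; per the labels, a stranded mRNA kit was used with 500 ng of RNA. The 5 lines that name no gene were left out. Symbols came from a reference name table (15002 of 15682 identifiers matched; all 86 members by construction), and chromosomes, exon lengths and overlaps from Ensembl release 115 of BDGP6, another build, so no coordinates are given.

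Members and lists were chosen with earlier results of these data known. Genes kept by filterByExpr (10 counts, 15 in total) were fitted over all 9 libraries with edgeR 4.0.16 in R 4.3.3 (TMM scaling, quasi-likelihood test, a mean per group), and p was adjusted by Benjamini-Hochberg over 10088 genes, with a threshold of 0.05. CPM are TMM-scaled. SE were derived from the F statistic. Scripts were tested on simulated data. Named members are those called in any comparison, the 2 with the largest change in mutant against control and the 1 with the highest mean CPM in each complex, all paralogs, and called genes of the lists, at most 4 per list; ND-15, ND-51, ND-23, ND-B18, ND-75, ND-24, ND-49, ND-20, ATPsynC, ATPsynCF6, Sdhaf3, sesB, blw, Cyt-c1 and Cyt-c-d were named after their values were seen. Markers of other tissues that were not called were also named after their values were seen. Alternatives were RLE and upper-quartile scaling, library totals, no filter, a minimum of 1 CPM in 3 libraries, a block for the replicate number, DESeq2 1.42.0, fits to the 6 libraries of a comparison, and omission of each library.

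Deviations from group means of same-numbered control and mutant libraries correlated across genes at 0.204, 0.176 and 0.170, all over 0.1. The numbers in the sample titles were thus read as pairs there. Those of rescue and control (0.0237, 0.250 and 0.0304) and of rescue and mutant (0.0964, 0.0726 and -0.237) were not. The replicate block nonetheless covered all 9 libraries. Where the block is not named, the SE and p-values for mutant against control take no account of the pairs. Whether replicates were separate cultures is not given in the labels, so a p-value covers only the spread of these samples, which may be technical. No 2 replicates agreed within counting noise (chi-square over its degrees of freedom at least 121.5).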

Additional observations from a re-analysis of the deposited data

Results flagged for a closer look

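Alignments that the authors' counting assigned to no gene stand outside the counts used above, and 4 of their shares lay above control. The share outside any gene was 1.71% ± 0.122 (SD, n = 3) in the rescue and 1.40% ± 0.0928 in control. The share that matched more than 1 gene was 1.01% ± 0.0368 in the mutant and 1.07% ± 0.0241 in the rescue, against 0.865% ± 0.0393 in control. The share aligned at more than 1 place was 18.8% ± 0.620 in the rescue and 15.3% ± 1.03 in control. In each case the groups did not overlap, and a two-sided exact permutation test gave p = 0.1, the smallest that 3 against 3 libraries allow. Their part in the members' values was not tested.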

How the results depend on the processing

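The median log2 fold changes of the subunit genes stayed within the spread between replicates (0.198) of their reported values under all settings run. That margin is wide beside the medians themselves, so staying within it does not show that they are stable. It holds the shift from -0.31 to -0.19 in mutant against control without control replicate 2. It also holds the shift from 0.02 to 0.16 in rescue against mutant without rescue replicate 1. In mutant against control, members called lower numbered 3 with DESeq2, 2 with library totals, 2 with the replicate block, 1 with upper-quartile scaling and 0 to 2 when 1 library was left out, against 0 as reported; DESeq2 called 1 member higher, COX5BL. In rescue against mutant, subunit genes below 0 ranged from 0 to 41 when 1 library was left out, against 25. In rescue against control, members called lower numbered 0 in the fit to 6 libraries and 0 to 2 when 1 library was left out, against 1. COX5A in rescue against control ranged from -0.25 to 0.03 when 1 library was left out, with the sign turned without control replicate 2 (0.0274) and without rescue replicate 1 (0.0033); the cause was not tested. The replicate block changed no other call of a member. The ranks and sums of libraries scaled by totals alone were an alternative chosen after seeing the data. With 3 libraries per group the median SE of a subunit gene was 0.16 beside a median log2 fold change of -0.31, and pooled midguts give no value for single animals.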
